A study of Mus musculus with 4 samples.

Results

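The imprinted growth regulators examined here were 10 mouse genes named by symbol, H19, Igf2, Meg3, Dlk1, Peg3, Mest, Plagl1, Cdkn1c, Grb10 and Peg10, and all 10 were found among the 38713 genes of the deposited expression table. RNA abundance was measured in 4 established mouse mammary tumor cell lines on the C57BL/6 background. The 2 JNK_WT lines (replicates 1 and 2) have the genotype p53-/-, and the 2 JNK_KO lines (replicates 1 and 3) have the genotype p53-/- JNK-/-, so the loss of p53 is shared by every line and the comparison is of JNK loss on that background. The floxed Trp53 alleles, and in JNK_KO also the floxed alleles of the JNK genes Mapk8 and Mapk9, were deleted by Cre under the Wap promoter, which is active in the mammary epithelium of parous females. Ages of the animals are not given in the sources used here. Each library was 1 line grown from a tumor and passaged in culture, so the spread between libraries is a spread between lines, and a line's own culture history cannot be told apart from its genotype.

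Imprinted genes are transcribed mainly from the copy inherited from a single parent, a state that is marked by DNA methylation set down in the germ line. Paternally expressed genes such as Igf2, Dlk1, Peg3, Mest, Plagl1 and Peg10 are often growth promoting in the fetus, while maternally expressed genes such as H19, Cdkn1c and, in most tissues, Grb10 tend to restrain growth. Many of them fall silent after birth and are found re-expressed or lost in tumors. Only RNA abundance was measured here, so neither the parental copy in use nor DNA methylation is known for any of these lines.

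Of the 10 genes, Igf2, Mest, H19 and Cdkn1c were expressed in some lines and nearly absent from others, Peg3, Peg10 and Grb10 were near 1 FPKM in their highest line, and Plagl1, Dlk1 and Meg3 stayed below 1 FPKM in all 4. FPKM counts fragments per length of exon and per mapped depth, so levels of different genes can be compared. None of the 5 genes that could be tested differed between JNK_KO and JNK_WT cells at a limma adjusted p under 0.05. On the log2(FPKM + 1) scale, the genotype means of each differed by less than the JNK_WT lines did. Over all genes tested the medians had that order too. The number of genes at 1 FPKM or more was 4 in JNK_WT replicate 1, 1 in JNK_WT replicate 2, 5 in JNK_KO replicate 1 and 4 in JNK_KO replicate 3.

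**Figure D1:**
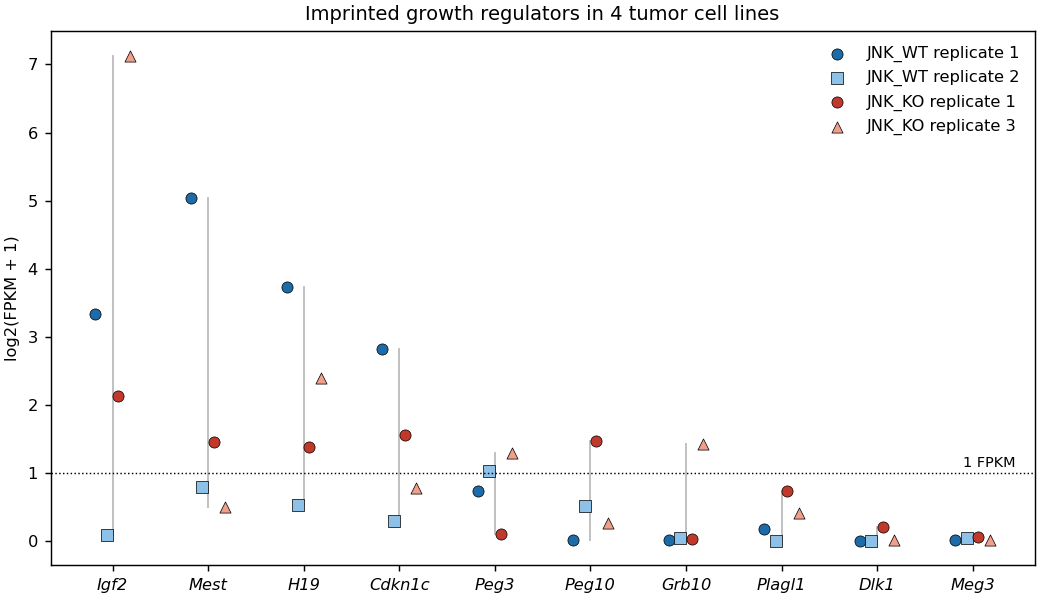
Level of each of the 10 genes, as log2(FPKM + 1), in the 4 cell lines, with a grey bar from the lowest to the highest line and a dotted line at 1 FPKM. Igf2 ran from 0.0599 FPKM in JNK_WT replicate 2 to 139 FPKM in JNK_KO replicate 3, while Meg3 and Dlk1 lay near 0 in every line.

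Sequences upstream of Igf2 and Mest, the genes with the widest range between lines, are shown because a gene-level FPKM adds up transcripts from several start sites. RefSeq (GRCm38.p6) gave 4 start sites for Igf2 and 3 for Mest. The stretches printed are those of 250 bases before a start that overlap no annotated exon, in the direction of transcription, with each CG dinucleotide, the site of DNA methylation, in capitals. They lie at chr7:142666817-142667066 (minus strand, Igf2 start 1), chr7:142657497-142657746 (minus strand, Igf2 start 4) and chr6:30737800-30738049 (plus strand, Mest start 2).
Igf2 start 1: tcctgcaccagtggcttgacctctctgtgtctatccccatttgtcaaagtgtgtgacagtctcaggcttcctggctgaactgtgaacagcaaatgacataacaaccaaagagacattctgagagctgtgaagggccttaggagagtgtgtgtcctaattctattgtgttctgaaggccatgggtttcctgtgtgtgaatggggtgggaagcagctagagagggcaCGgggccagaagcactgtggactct
Igf2 start 4: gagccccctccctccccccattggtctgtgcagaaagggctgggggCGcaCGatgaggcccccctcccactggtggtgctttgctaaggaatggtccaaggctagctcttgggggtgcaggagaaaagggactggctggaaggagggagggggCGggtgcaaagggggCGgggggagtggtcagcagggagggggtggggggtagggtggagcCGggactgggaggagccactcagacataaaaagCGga
Mest start 2: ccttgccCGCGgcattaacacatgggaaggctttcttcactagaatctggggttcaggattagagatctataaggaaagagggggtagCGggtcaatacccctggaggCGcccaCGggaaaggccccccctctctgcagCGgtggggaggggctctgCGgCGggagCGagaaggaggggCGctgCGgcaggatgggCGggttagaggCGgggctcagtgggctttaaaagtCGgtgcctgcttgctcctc

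The letters CG occur 1 time before Igf2 start 1, 6 times before Igf2 start 4 and 14 times before Mest start 2. Over 32817 promoters of the same length the median was 6, and 92.1%, 50.3% and 29.3% of them held at least as many. The other Igf2 stretches held 10 (start 2) and 22 (start 3). Among 14 stretches matched to 7 of the 10 genes the count ran from 0 before Meg3 start 2 to 40 before Grb10 start 1, and 12 held at least 6. H19, Cdkn1c and Peg10 had no entry. Which start was used in which line cannot be read from gene-level values.

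H19 is also the host of a microRNA hairpin, Mir675 (84 bases, chr7:142577064-142577147, minus strand), so the mature arms are shown with the seed, bases 2 to 8, in capitals. The arms lie at chr7:142577112-142577133 and chr7:142577078-142577099, and their seeds differ.
mmu-miR-675-5p: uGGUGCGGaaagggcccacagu
mmu-miR-675-3p: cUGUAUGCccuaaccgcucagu

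The targeted genes were examined first. Mapk8, which encodes JNK1, had 23.9 and 19.1 FPKM in the JNK_WT lines (replicate 1 first, as below) and 4.30 and 4.27 FPKM in the JNK_KO lines. Mapk9, which encodes JNK2, was at 29.7 and 24.3 FPKM in JNK_WT and at 12.6 and 8.66 FPKM in JNK_KO. Both ran in the direction of the labels in all 4 libraries, with log2 differences of -2.08 (SE 0.29, limma adjusted p = 0.191) and -1.28 (SE 0.31, limma adjusted p = 0.429). Trp53, deleted in both groups, was listed at 1.55, 4.15, 5.72 and 4.28 FPKM. Deposited FPKM summed to between 775960 and 921595 per library, the upper quartile of the tested genes lay between 33.2 and 34.3 FPKM, and read depth was not given with the table.

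A gene was tested with limma on log2(FPKM + 1) when it reached 1 FPKM in at least 2 of the 4 libraries, which 12998 genes did, among them Igf2, Mest, H19, Cdkn1c and Peg3. Differences are JNK_KO minus JNK_WT, and a call required both an adjusted p under 0.05 and a log2 difference over 0.75 in size. None of the 5 was called, beside 0% of all genes tested. None of the 5 had an unadjusted limma p under 0.05, beside 7.63% (992 genes) of all genes tested. Igf2 exceeded 0.75 upward and Mest downward, beside 15.7% of all genes past that size in either direction. In none of the 5 did the groups fail to overlap, beside 35% of all genes tested (16.7% with JNK_KO lower and 18.3% with JNK_KO higher). With 2 lines against 2, an exact permutation test of a single gene can give no p below 0.333. On simulated data of the same layout, the test called no gene changed by a log2 difference of 2. The simulated spreads were drawn from the distribution that limma fitted over all genes tested, not from the spread of these 5 genes.

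Igf2 encodes the insulin-like growth factor 2, a secreted ligand of the Igf1r and Insr receptors that drives fetal growth (chr7:142650766-142666816, minus strand). JNK_WT replicate 1 held 9.11 FPKM and replicate 2 held 0.0599 FPKM, against 3.37 FPKM in JNK_KO replicate 1 and 139 FPKM in replicate 3. JNK_KO replicate 3 stood 15.3-fold above the next line, and JNK_KO replicate 1 lay between the JNK_WT lines, so the groups overlapped. The mean level was 4.59 ± 6.40 FPKM in JNK_WT and 71.3 ± 96.1 FPKM in JNK_KO (SD, n = 2 each). The log2 difference was 2.92 (SE 2.01, limma adjusted p = 0.905). Without JNK_KO replicate 3 the log2 difference was 0.42, and without JNK_WT replicate 2 it was 1.29. The range of Igf2 over the 4 lines, 7.05 on the log2(FPKM + 1) scale, was reached or passed by 0.138% of the genes tested.

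Among Igf1 and the 6 IGF-binding protein genes of the list, 2 of 7 were highest in the line with the most Igf2. That line, JNK_KO replicate 3, was highest for 21.7% of all genes tested. Igf1, the related ligand, was listed at 0.236 and 0.00879 FPKM in JNK_WT and at 0.408 and 6.68 FPKM in JNK_KO, and Igfbp5, a secreted IGF-binding protein, at 0.0310 and 0.260 FPKM in JNK_WT and at 0.0643 and 10.9 FPKM in JNK_KO. Both reached 1 FPKM in JNK_KO replicate 3 alone, so neither was tested, and they were named after their values were seen. Igfbp2, Igfbp3 and Igfbp7 were highest in JNK_WT replicate 2, Igfbp6 in JNK_WT replicate 1 and Igfbp4 in JNK_KO replicate 1. The receptors varied less: Igf1r, the signaling receptor, had 10.5 and 12.4 FPKM in JNK_WT and 13.2 and 10.5 FPKM in JNK_KO, with a log2 difference of 0.04 (SE 0.29).

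Mesenchymal markers were read beside Igf2, a gene that stromal cells express. Of 15 mesenchymal markers 12 reached 1 FPKM in some library, and their summed level was 864 and 322 FPKM in JNK_WT and 993 and 585 FPKM in JNK_KO. Vim, at 331, 47.2, 500 and 159 FPKM, and Fn1, at 483, 226, 311 and 189 FPKM in that library order, made up most of each sum. The order of the sum therefore rests mostly on Vim and Fn1, and it is not the order of Igf2. JNK_KO replicate 3, the line with the most Igf2, was highest for 6 of the 15 markers, JNK_KO replicate 1 and JNK_WT replicate 1 for 4 each and JNK_WT replicate 2 for 1. Over all genes tested, JNK_KO replicates 3 and 1 were highest for 21.7% and 24.8%. JNK_WT replicates 1 and 2 were highest for 26.7% and 26.9%. The groups did not overlap in 7 of the 15, with JNK_KO higher in 6 and lower in 1. The share was 35% of all genes tested and 32.4% of the 25135 genes above 0 in some library. Dcn (decorin) was at 0.430, 0.389, 79.7 and 162 FPKM and Postn (periostin) at 1.32, 2.58, 0.728 and 25.6 FPKM in the same library order. Both were highest in JNK_KO replicate 3, but Dcn was also high in JNK_KO replicate 1, where Igf2 was at 3.37 FPKM. Lum was at or below 0.00840 FPKM and Col1a1 at or below 0.527 FPKM in every library. The part of such cells in the Igf2 level was not tested, and more cells of a type and more RNA per cell cannot be told apart in bulk RNA.

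Mest, a paternally expressed gene for a protein of the hydrolase fold (chr6:30723547-30748465, plus strand), had 31.7 FPKM in JNK_WT replicate 1 and 0.730 FPKM in replicate 2, against 1.74 FPKM in JNK_KO replicate 1 and 0.404 FPKM in replicate 3. JNK_WT replicate 1 stood 18.2-fold above the next line, and the JNK_KO lines lay on either side of JNK_WT replicate 2. The mean was 16.2 ± 21.9 FPKM in JNK_WT and 1.07 ± 0.945 FPKM in JNK_KO (SD, n = 2 each). The log2 difference was -1.94 (SE 1.48, limma adjusted p = 0.933), and without JNK_WT replicate 1 it was 0.18. The 628 tested genes of chromosome 6 had a median log2 difference of -0.59, beside 0.01 over all genes tested, and Mest lay -1.35 from that chromosome's median. Mir335, a hairpin within Mest, was listed at 0 in all 4 libraries.

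Cdkn1c encodes p57Kip2, an inhibitor of cyclin-dependent kinases that holds cells out of the cycle (chr7:143458339-143461050, minus strand). It was at 6.06 and 0.228 FPKM in JNK_WT and at 1.93 and 0.710 FPKM in JNK_KO. Both JNK_KO lines lay between the JNK_WT lines. The log2 difference was -0.39 (SE 0.93, limma adjusted p = 0.999), and without JNK_WT replicate 1 it was 0.87. Its relatives of the same inhibitor family were more abundant. Cdkn1b had 92.0 and 59.4 FPKM in JNK_WT and 27.7 and 58.3 FPKM in JNK_KO, and Cdkn1a had 8.0 and 26.6 FPKM in JNK_WT and 7.85 and 4.58 FPKM in JNK_KO. In both, each JNK_KO line lay below each JNK_WT line, with log2 differences of -0.86 (SE 0.46, limma adjusted p = 0.827) and -1.16 (SE 0.64, limma adjusted p = 0.836). Cdkn1b lies on chromosome 6 and was -0.27 from the median of that chromosome given above. Cdkn1b was named after its values were seen.

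H19 encodes a maternally expressed long noncoding RNA that shares a control region with Igf2 (chr7:142575529-142578143, minus strand, 2460 bases of exon). It was at 12.2 and 0.436 FPKM in JNK_WT and at 1.59 and 4.26 FPKM in JNK_KO. As with Cdkn1c, the JNK_WT lines were the highest and the lowest and enclosed both JNK_KO lines. The mean was 6.32 ± 8.32 FPKM in JNK_WT and 2.92 ± 1.89 FPKM in JNK_KO (SD, n = 2 each), with a log2 difference of -0.24 (SE 1.16, limma adjusted p = 0.999). The sign turned with a pseudocount of 0.1 in place of 1 (0.08), without JNK_WT replicate 1 (1.36) and without JNK_KO replicate 1 (0.27).

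The H19 level is uncertain, because the table has further rows whose symbols begin with its name and overlapping transcripts can trade reads. Rows named H19_1 and H19_2, for which no gene ID or position was found, had 442 and 819 FPKM in JNK_WT replicate 1 and 28.9 and 53.1 FPKM in JNK_WT replicate 2. In JNK_KO replicate 1 they were at 74.7 and 68.3 FPKM, and in JNK_KO replicate 3 at 78.8 and 313 FPKM. Both rows had the same highest and lowest library as H19. They were read after the data had been seen and were not added to H19. The Mir675 hairpin row was listed at 3.45 and 0 FPKM in JNK_WT and at 0 and 1.65 FPKM in JNK_KO, so it was above 0 in the 2 lines with the most H19. The libraries were not made for small RNA, and so the mature arms printed above were not measured.

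Igf2 and H19 lie next to each other and are classically transcribed from opposite parental copies. The level of Igf2 was 0.747 times that of H19 in JNK_WT replicate 1 and 0.137 times in JNK_WT replicate 2. In JNK_KO it was 2.12 times in replicate 1 and 32.7 times in replicate 3. Igf2 was thus below H19 in both JNK_WT lines and above it in both JNK_KO lines, a contrast noticed after the values were seen and given as a description. It did not hold against the rows H19_1 and H19_2. Igf2 was below both rows in both JNK_WT lines and in JNK_KO replicate 1, and between them in JNK_KO replicate 3. JNK_WT replicate 2 was the lowest line for both genes.

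Peg3, a zinc finger protein gene (chr7:6703892-6730431, minus strand), was at 0.664 and 1.03 FPKM in JNK_WT and at 0.0726 and 1.44 FPKM in JNK_KO. The JNK_KO lines were the lowest and the highest and enclosed both JNK_WT lines. The log2 difference was -0.18 (SE 0.50, limma adjusted p = 0.999), and without JNK_KO replicate 1 it was 0.41.

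**Figure D2:**
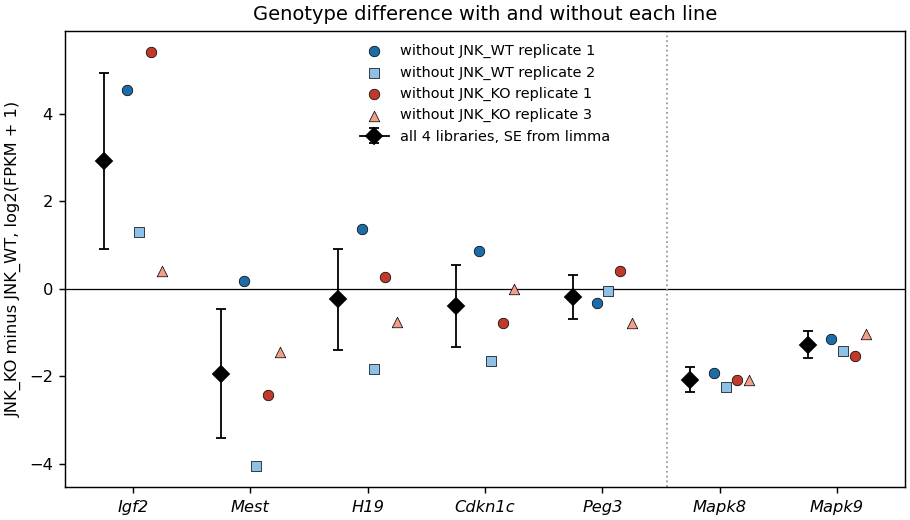
Log2 difference, JNK_KO minus JNK_WT, on the log2(FPKM + 1) scale for the 5 imprinted genes tested and the targeted genes Mapk8 and Mapk9. Black diamonds are the estimate from all 4 libraries with its limma SE, and coloured points leave out the library named. Mapk8 and Mapk9 stayed below 0 without any library, while Mest, H19, Cdkn1c and Peg3 fell on both sides of 0.

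The other 5 genes did not reach 1 FPKM in 2 libraries and were described without a test. Peg10, derived from a retrotransposon and needed for the placenta (chr6:4747306-4760517, plus strand), had 0.00898 and 0.418 FPKM in JNK_WT and 1.75 and 0.192 FPKM in JNK_KO. Grb10, an adaptor that binds the insulin and IGF receptors and dampens their signal (chr11:11930508-12038683, minus strand), was at 0.00897 and 0.0278 FPKM in JNK_WT and at 0.0133 and 1.69 FPKM in JNK_KO. Each was above 1 FPKM in a single JNK_KO line, a different line for each gene, and the groups overlapped.

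Plagl1, a zinc finger transcription factor linked to cell cycle arrest (chr10:13060504-13131694, plus strand), had 0.132 and 0 FPKM in JNK_WT and 0.657 and 0.329 FPKM in JNK_KO. Both JNK_KO lines lay above both JNK_WT lines, all below 1 FPKM. In a fit of 25135 genes with no filter, the log2 difference of Plagl1 was 0.48 (SE 0.15, limma adjusted p = 0.649), and it was the only gene of the 10 with an unadjusted p under 0.05 in that fit (0.0351), beside 7.15% of all genes in it. That fit called 0 genes. Its relatives with the same type of zinc fingers passed the filter. Plagl2 had 14.5 and 6.56 FPKM in JNK_WT and 7.65 and 9.79 FPKM in JNK_KO, and Plag1 had 1.38 and 0.993 FPKM in JNK_WT and 1.35 and 3.5 FPKM in JNK_KO. Both were named after their values were seen.

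Dlk1, a transmembrane protein that blocks adipocyte differentiation (chr12:109452823-109463336, plus strand), was listed at 0 FPKM in both JNK_WT lines and at 0.150 and 0.00406 FPKM in the JNK_KO lines. Meg3, the maternally expressed noncoding RNA of the same domain (chr12:109541001-109571726, plus strand), had 0.00423 and 0.0319 FPKM in JNK_WT and 0.0433 and 0.00642 FPKM in JNK_KO. Neither gene of this pair reached 0.2 FPKM in any line, and at such values a difference was not detectable. Dlk2, the close relative of Dlk1 outside the domain, was at 8.25 and 0.788 FPKM in JNK_WT and at 21.4 and 2.52 FPKM in JNK_KO, with a log2 difference of 1.12 (SE 1.23, limma adjusted p = 0.979).

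For each of the 5 genes that passed the filter, the JNK_WT lines were further apart than the means of the genotypes. The absolute difference between the JNK_WT lines was 4.24 for Mest, 3.25 for Igf2, 3.20 for H19, 2.52 for Cdkn1c and 0.29 for Peg3 on the log2(FPKM + 1) scale. Their median was 3.20, beside 0.43 over all genes tested. Between the JNK_KO lines the difference was 5.0 for Igf2, 1.19 for Peg3, 1.02 for H19, 0.96 for Mest and 0.78 for Cdkn1c, with a median of 1.02 beside 0.33 over all genes tested. The median absolute difference between genotypes was 0.39 for the 5 genes and 0.27 over all genes tested. The signed median was -0.24, beside 0.01 over all genes tested. For Mest the genotype difference of -1.94 was larger in size than the difference between the JNK_KO lines. Means of 2 lines vary less than single lines. Over all genes tested the median was likewise smaller between genotypes than between the JNK_WT lines (0.27 and 0.43).

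**Figure D3:**
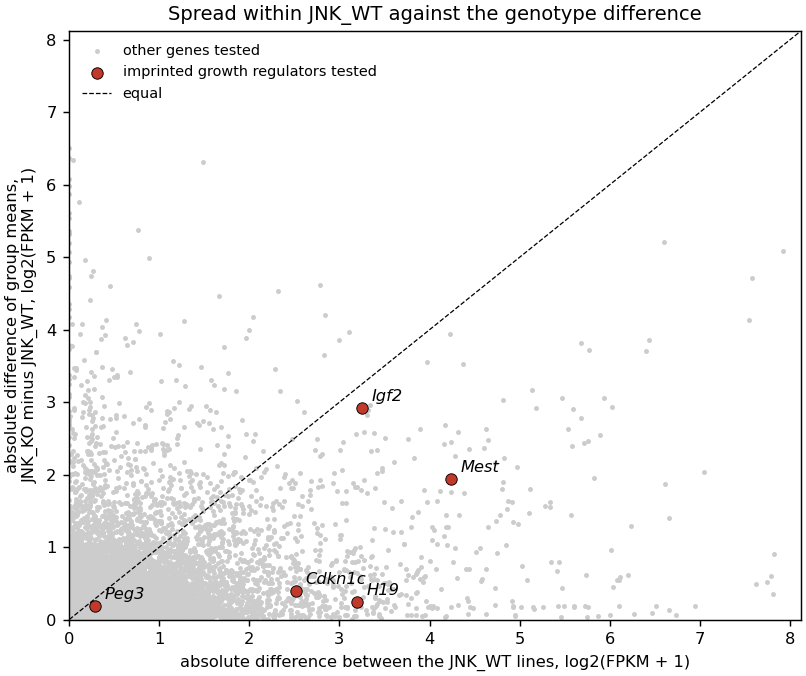
Absolute difference of the group means against the absolute difference between the JNK_WT lines, both on the log2(FPKM + 1) scale, for 12998 genes tested (grey) with the 5 imprinted genes tested in red. All 5 lie below the dashed line of equality, where the JNK_WT lines differ by more than the genotypes do. Over all genes tested the median was 0.27 between genotypes and 0.43 between the JNK_WT lines.

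H19, Mest and Cdkn1c were highest in JNK_WT replicate 1, and H19, Igf2, Cdkn1c and Plagl1 were lowest in JNK_WT replicate 2, which was the highest line for none of the 10 genes. Over all genes tested, JNK_WT replicates 1 and 2 were highest for 26.7% and 26.9%. JNK_WT replicate 2 was lowest for 27.4%. H19 and Cdkn1c were both highest in JNK_WT replicate 1 and lowest in JNK_WT replicate 2, 2 of 5 tested, beside 10.5% of all genes tested. In the lists described below, the same was seen for 1 of 8 paternally expressed genes (Nnat), 0 of 17 maternally expressed genes, 1 of 11 imprint factors (Zfp57) and 5 of 22 relatives and partners (Irs2, Igf2bp1, Igf2bp2, Igf2bp3 and Plagl2). Summed over the 10 genes the level was 59.9, 2.96, 11.3 and 148 FPKM in JNK_WT replicates 1 and 2 and JNK_KO replicates 1 and 3.

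Markers of other cell types moved between these lines as well. Of 8 basal and myoepithelial markers 6 reached 1 FPKM, and their sum was 26.1 and 734 FPKM in JNK_WT and 38.3 and 376 FPKM in JNK_KO. The sum was highest in the line that was lowest for H19, Igf2 and Cdkn1c. JNK_KO replicate 3, with the next highest sum, had the most Igf2 and the next most H19. In these 2 lines most of the sum was Krt14, at 443 and 313 FPKM, while Krt5 was at 61.9 and 0.205 FPKM. Krt5, Krt14, Krt17, Trp63 and Cnn1 were highest in JNK_WT replicate 2. Acta2 and Myh11 were highest in JNK_KO replicate 3 and Oxtr in JNK_KO replicate 1, so the markers did not share a single order. Of 7 leukocyte markers that were listed, 2 reached 1 FPKM, Cd68 and Csf1r, and the list summed to 22.0, 3.67, 3.63 and 9.79 FPKM, highest in the line with the most H19. Ptprc, the pan-leukocyte marker, was at or below 0.0134 FPKM in every library. All 12 epithelial markers reached 1 FPKM, and they summed to between 1841 and 5042 FPKM, so epithelial markers were present in every line. No endothelial (of 6) or adipocyte (of 5) marker reached 1 FPKM. The endothelial sum was between 0.761 and 1.46 FPKM and the adipocyte sum between 0.0430 and 0.612 FPKM, with Plin1 and Lep at 0. The part of basal cell state in the levels of the imprinted genes was not tested.

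The genes with the profile most like that of the widest 3 genes were found by the root mean square distance between log2(FPKM + 1) profiles, each centred on its mean over the 4 libraries. For Igf2 they were Klra8 (distance 1.06), Pdk4 (1.14) and Mir22 (1.16). Pdk4 had 6.41 and 1.53 FPKM in JNK_WT and 11.9 and 61.2 FPKM in JNK_KO. For Mest they were 2010300F17Rik (0.355), Plau (0.384) and AA465934 (0.405). Plau, the urokinase protease, was at 761 FPKM in JNK_WT replicate 1 and between 41.3 and 52.8 FPKM in the other lines. For H19 they were Aim2 (0.0823), Lrrn4cl (0.141) and 5830416P10Rik (0.167). With 4 libraries such likeness is a description only, and a close match is easily found among 12998 genes.

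Other imprinted genes were read from lists. Of 22 further paternally expressed genes 20 were in the table and 8 were tested. None was called and none had an unadjusted limma p under 0.05, and their median log2 difference was 0.01. The largest differences were those of Sgce, Nnat and Snurf. Sgce, a sarcoglycan whose start lies 99 bases from that of Peg10, was listed at 0 and 1.79 FPKM in JNK_WT and at 8.14 and 1.44 FPKM in JNK_KO, with a log2 difference of 1.5 (SE 0.86, limma adjusted p = 0.850). JNK_KO replicate 1 was the highest line for Sgce and for Peg10, and JNK_WT replicate 1 the lowest for both. Nnat (neuronatin) was at 11.7 and 0.586 FPKM in JNK_WT and at 1.19 and 0.954 FPKM in JNK_KO, with a log2 difference of -1.12 (SE 1.05, limma adjusted p = 0.969). The log2 difference of Snurf, which shares a transcript and so reads with Snrpn, was -0.36 (SE 0.67, limma adjusted p = 0.999). Among the 20 genes found, 11 were below 1 FPKM in all 4 lines.

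Of 29 further maternally expressed genes, all in the table, 17 were tested and none was called. The median log2 difference was -0.13. Slc22a18, Igf2r and Copg2 had an unadjusted limma p under 0.05, each with JNK_KO lower. Over all 12998 genes tested 7.63% had such a p, 375 genes with JNK_KO lower. Copg2 lies on chromosome 6 and was -0.32 from the median of that chromosome given above. The groups did not overlap in 10 of the 17, beside the 35% of all genes tested given above. JNK_KO was lower in 7 and higher in 3, beside 16.7% and 18.3% of all genes tested. Slc22a18, a transporter gene 12686 bases from Cdkn1c, was at 5.78 and 5.61 FPKM in JNK_WT and at 3.18 and 1.43 FPKM in JNK_KO, with a log2 difference of -1.07 (SE 0.39, limma adjusted p = 0.644). Phlda2, the growth-restraining placental gene beside it, was at 17.9 and 23.5 FPKM in JNK_WT and at 15.4 and 5.61 FPKM in JNK_KO, with a log2 difference of -1.05 (SE 0.52, limma adjusted p = 0.798). Both genes lie in the domain of Cdkn1c, and each differed less between the JNK_WT lines than Cdkn1c did. Ppp1r9a, a neighbour of Peg10, had a log2 difference of -1.06 (SE 0.40, limma adjusted p = 0.656). It lies on chromosome 6 and was -0.47 from the median of that chromosome given above.

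Igf2r, the maternally expressed receptor that clears Igf2 from the cell surface, was at 19.7 and 31.6 FPKM in JNK_WT and at 12.9 and 13.4 FPKM in JNK_KO. Both JNK_KO lines lay below both JNK_WT lines, with a log2 difference of -0.87 (SE 0.33, limma adjusted p = 0.653), so the difference did not pass the adjusted threshold. Airn, the paternal noncoding RNA that overlaps Igf2r, had 2.36 and 3.63 FPKM in JNK_WT and 3.90 and 3.31 FPKM in JNK_KO. Since the libraries were not stated to keep strand, reads of Airn and Igf2r can be mixed where they overlap.

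**Figure D4:**
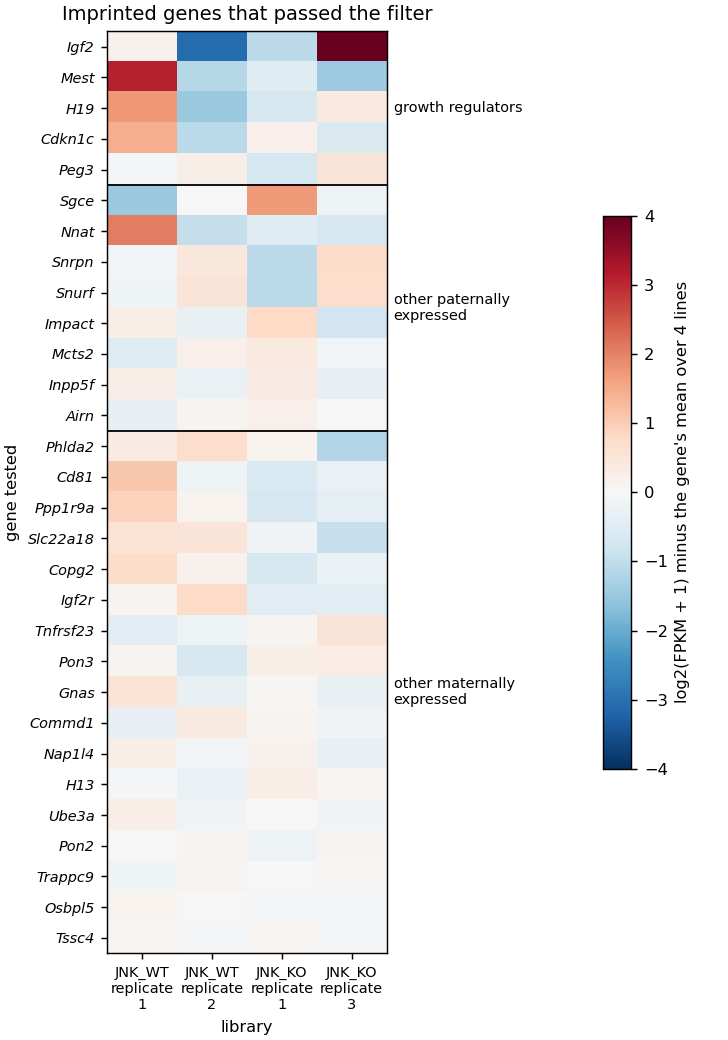
Level of each imprinted gene tested in each library, as log2(FPKM + 1) minus the mean of that gene over the 4 lines, with red above and blue below the mean. The growth regulators are on top, the other paternally expressed genes in the middle and the other maternally expressed genes at the bottom, each sorted by range. Strong colours are seen for Igf2, Mest, H19 and Cdkn1c, and pale rows fill most of the maternally expressed genes, whose median range was 0.832 beside 3.20 for the growth regulators. The median range was 1.69 for the other paternally expressed genes and 0.782 over all genes tested.

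Factors that set or keep imprints were read from a list of 16 genes, all in the table. Ctcfl, Dppa3, Dnmt3b, Dnmt3l and Tet1 were below 1 FPKM in all 4 lines, with Dppa3 listed at 0. The other 11 were tested, and none was called or had an unadjusted limma p under 0.05. The largest log2 differences were -0.56 for Tet3 (SE 0.53), an enzyme that oxidizes methylcytosine, 0.51 for Zfp445 (SE 0.34), a zinc finger protein that binds imprinted control regions, and 0.37 for Hells (SE 0.50), a chromatin remodeler needed for DNA methylation, with limma adjusted p of 0.971, 0.896 and 0.995. Tet3 lies on chromosome 6 and was 0.03 from the median of that chromosome given above. Dnmt1, the maintenance methyltransferase, was at 32.2, 24.5, 39.3 and 27.0 FPKM, and its groups overlapped. Zfp57, which binds methylated control regions, was at 3.85 and 0.230 FPKM in JNK_WT and at 1.90 and 0.774 FPKM in JNK_KO. That is the library order of Cdkn1c. Dnmt1 and Zfp57 were named after their values were seen.

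Of 25 relatives and binding partners, such as IGF receptors, IGF-binding proteins, IGF2 mRNA-binding proteins and cyclins, 22 were tested, none was called and none had an unadjusted limma p under 0.05. The median log2 difference was -0.04. Besides Cdkn1a and Dlk2, the largest was that of Igfbp3, a secreted IGF-binding protein, at 2.65 and 65.7 FPKM in JNK_WT and 3.34 and 12.4 FPKM in JNK_KO, with a log2 difference of -1.03 (SE 1.53, limma adjusted p = 0.996). The IGF2 mRNA-binding proteins bind Igf2 and other fetal transcripts. Igf2bp2, the most abundant of them, was at 69.4 and 29.4 FPKM in JNK_WT and at 44.8 and 68.8 FPKM in JNK_KO. Igf2bp3 was at 35.9 and 0.608 FPKM in JNK_WT and at 2.05 and 4.35 FPKM in JNK_KO, and Igf2bp1 at 11.0 and 0.276 FPKM in JNK_WT and at 2.58 and 2.19 FPKM in JNK_KO. Like H19, all 3 were highest in JNK_WT replicate 1 and lowest in JNK_WT replicate 2, with both JNK_KO lines in between, though Igf2bp2 was nearly as high in JNK_KO replicate 3. They were named after their values were seen.

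The 2 nearest tested genes on each side of each of the 10 genes, and tested genes that overlap them (Mir675 and Copg2), were compared with them. Some lay far away, such as Sec61g, 4461847 bases from Grb10. These 33 neighbours had a median range of 0.862 on the log2(FPKM + 1) scale and a median log2 difference of -0.37. JNK_KO was below JNK_WT without overlap in 16 and above it in 3, beside 16.7% and 18.3% of all genes tested. An unadjusted limma p under 0.05 was found for 7, beside 7.63% of all genes tested, and none was called. Slc22a18, Phlda2, Copg2, Cd81, Tssc4, Ppp1r9a and Pon3 are also in the maternally expressed list above, so the counts share genes. Tested genes of chromosomes 6 and 12, where some neighbours lie, had median log2 differences of -0.59 and -0.41. The medians of chromosomes 7, 10 and 11, where the others lie, were -0.07, -0.04 and -0.20. On chromosome 7, Mrpl23, Lsp1, R74862, Cd81, Zfp667, Zfp444, Slc22a18 and Phlda2 were lower in JNK_KO without overlap. Of the other neighbours there, Zfp772 was higher without overlap, and Mir675, Tssc4 and Zfp954 overlapped. Beside H19, Mrpl23 was at 20.1 and 16.3 FPKM in JNK_WT and at 14.3 and 12.9 FPKM in JNK_KO. Lsp1, 80662 bases from H19, was at 17.4 and 14 FPKM in JNK_WT and at 1.43 and 2.86 FPKM in JNK_KO, with a log2 difference of -2.44 (SE 0.37, limma adjusted p = 0.231). H19 did not have that order, being higher in both JNK_KO lines than in JNK_WT replicate 2.

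Copg2, which overlaps Mest on the opposite strand, was at 124 and 84.8 FPKM in JNK_WT and at 47.2 and 62.0 FPKM in JNK_KO, with a log2 difference of -0.91 (SE 0.30, limma adjusted p = 0.581). Cep41, 29798 bases from Mest, was at 6.69 and 2.98 FPKM in JNK_WT and at 3.71 and 1.49 FPKM in JNK_KO. Its highest and lowest lines were those of Mest, over a narrower span. Beside Peg10, Casd1 was at 15.2 and 23.5 FPKM in JNK_WT and at 6.08 and 8.66 FPKM in JNK_KO, with a log2 difference of -1.27 (SE 0.36, limma adjusted p = 0.485), while Pon3 was at 24.5 and 14.1 FPKM in JNK_WT and at 26.6 and 27.6 FPKM in JNK_KO. Copg2, Cep41, Casd1, Pon3 and Peg10 lie on chromosome 6, whose median is given above. Copg2 was -0.32, Cep41 -0.10, Casd1 -0.68 and Pon3 1.11 from that median. The tested neighbours of Plagl1 (Sf3b5, Stx11, Ltv1 and Phactr2) and of Grb10 (Fignl1, 4930512M02Rik, Cobl and Sec61g) differed by between -0.20 and 0.40, all on the log2(FPKM + 1) scale.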

How the data were processed

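RNA-seq values were used for 4 mammary tumor cell lines (2 JNK_WT, 2 JNK_KO), grouped by their labels. The authors trimmed and subsampled single-end reads, aligned them to mm10 (GRCm38) with Bowtie2 and TopHat2 2.0.14 and deposited FPKM per gene and library from Cufflinks 2.2.1. The gene annotation and strand setting are not given in the sources used here. FPKM are not counts, so no count model was fitted. Of 38741 rows, 27 with a calendar date as symbol and 1 with no value were left out.

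Genes at 1 FPKM or more in at least 2 libraries were tested on log2(FPKM + 1), a scale that understates changes of low genes, in a two-sided limma 3.58.1 fit (lmFit, eBayes with trend, R 4.3.3), and p-values were adjusted by Benjamini-Hochberg across the 12998 genes. The test was tried on simulated data. The p-values measure the spread between these lines. Positions came from GENCODE M21 (GRCm38), matched by symbol for 98.4% of the tested genes. Sequences came from RefSeq (GRCm38.p6).

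The 10 genes and the lists were chosen with earlier results of these data known. Named were the 10 genes, the targeted genes, the 3 largest differences per list, the 2 nearest tested genes on each side of each gene and the 3 most similar profiles of the 3 widest genes. Tested genes that overlap one of the 10 genes were counted as neighbours too. Igf1r, Airn, the IGF-binding proteins, the imprint factors below 1 FPKM, single cell type markers and genes so described were named after their values were seen. Summaries used Python 3.11.15 and pandas 2.3.3, and figures used matplotlib 3.10.9.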

Additional observations from a re-analysis of the deposited data

How the results depend on the processing

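The results were recomputed with pseudocounts of 0.1 and 0.5, with no filter and with a mean of at least 5 FPKM, with upper quartile, quantile and total scaling, without the trend, with robust eBayes, at an adjusted p of 0.1, relative to the chromosome median and without each replicate. Of the 10 genes, all were tested with no filter, 2 with a mean of at least 5 FPKM and 5 in the other limma fits, and none of those tested was called (adjusted p from 0.311 to 0.999916). The median log2 difference of the tested genes, -0.24, was 0.06 with no filter, 0.49 with a mean of at least 5 FPKM, -1.66 without JNK_WT replicate 2 and from -1.66 to 0.87 over the fits without a replicate, so its sign was not stable. The number of genes whose groups did not overlap was 0, and it was 2 of 10 with no filter (Dlk1 and Plagl1), beside 32.4% of all genes in that fit. Without a replicate it was 1 to 3 of 5, beside between 61% and 72.1% of all genes tested. H19 reversed to 0.079 with a pseudocount of 0.1. Without a replicate the log2 difference ran from -1.84 to 1.36 for H19, from -0.78 to 0.41 for Peg3, from -4.06 to 0.18 for Mest, from -1.66 to 0.87 for Cdkn1c and from 0.42 to 5.42 for Igf2. In these fits the lone line of a group is assumed to vary like the other group. No paired analysis was possible because JNK_WT and JNK_KO have a single replicate number in common.

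Read counts were not used here, so no interval for values near 0 was computed, and the lowest levels can rest on few reads. With 2 lines per genotype, simulated differences of 2 on the log2 scale were not called, at spreads drawn from the limma fit over all genes tested.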
